A study of Rattus norvegicus with 2 samples.

Results

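The miRNAs described here are those studied in mitochondrial and energy metabolism that the deposited tables listed, together with the mir-181 relatives. They were mir-378a, mir-210, mir-103-1, mir-103-2, mir-181a-1, mir-181b-1, mir-181b-2, mir-181c and mir-181d, and they were chosen by name. They took 9 of the 193 miRNA rows of the tables, rows marked with an asterisk being left out. The copies of mir-103 had equal counts, as had those of mir-181b, so the 9 rows gave 7 measurements. The tables came from small RNA sequencing of the left ventricle of Wistar rats at 16 weeks of age. The control group lived under normal conditions with free access to feed and water. The swim group was kept in the same way and also swam for 90 minutes in each of 2 daily sessions over 8 weeks, a training that enlarges the heart and serves as a model of physiological hypertrophy. Each group was represented by 1 library, and the sources used here do not give the number of animals behind it. Counts over the miRNA rows summed to 2460845 for control and 3219939 for swim. With 1 library per group there was no spread between animals and no test, and every interval below is a 95% interval for counting error only. The rows stood in 2 ordered parts, the first sorted by ratio and the second by control count, and the name let-7e stood in both parts with its counts exchanged, 1193 in control and 821 in swim in the first part against 821 and 1193 in the second. Which order is right cannot be told from the tables, so the direction of each ratio rests on the column labels of its part. The columns of the second part, which holds mir-210 alone of the members, were also exchanged, a setting added after seeing the data. The same exchange of the first part, which holds the other 6 measurements, was not run. In whole ventricle, a lower share of cells that make a miRNA and less of it per cell cannot be told apart.

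A miRNA is cut from a hairpin precursor and guides the silencing complex to messenger RNAs that match its seed, bases 2 to 8 of the mature strand. The heart takes most of its ATP from mitochondria that burn fatty acids, and several miRNAs act on this supply. The hairpin of mir-378a lies inside Ppargc1b, the gene of the coactivator PGC-1β that drives mitochondrial genes, and in mice it is known to act on fatty acid oxidation. The hypoxia-inducible miR-210 is known to repress ISCU, which builds iron-sulfur clusters for the respiratory chain. The hairpins of mir-103 lie inside Pank2 and Pank3, genes of pantothenate kinases that start coenzyme A synthesis, and in mice miR-103 and miR-107 are known to affect insulin sensitivity. In rat heart cells miR-181c is known to enter mitochondria and act on the mitochondrial transcript of a cytochrome c oxidase subunit. In mice miR-181a and miR-181b are studied in the making and turnover of mitochondria.

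The mature strands show which rows could share targets or reads. They are taken from RefSeq (build GRCr8), with the seed in capitals, and all 7 measurements were matched. The strand shown is the arm that is usually the abundant one, while the rows carry hairpin names, so the arms cannot be told apart in the counts. The strand of mir-107, which is no member, is shown because it differs from that of mir-103 by 1 base.
miR-378a-3p: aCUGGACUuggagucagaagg
miR-210-3p: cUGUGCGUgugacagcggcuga
miR-103-3p: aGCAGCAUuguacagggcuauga
miR-107-3p: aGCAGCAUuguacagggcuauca
miR-181a-5p: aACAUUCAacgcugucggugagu
miR-181b-5p: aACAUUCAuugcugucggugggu
miR-181c-5p: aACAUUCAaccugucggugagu
miR-181d-5p: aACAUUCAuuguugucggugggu

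The 4 mir-181 strands had the same seed, ACAUUCA, and no other mature rat miRNA in the RefSeq table had it. From miR-181a to miR-181b the substitutions were A9U, C10U and A21G, counted from the 5′ end, and from miR-181b to miR-181d the only substitution was C12U. The strands of miR-181a, with 23 bases, and miR-181c, with 22, were 1 edit apart. The seed GCAGCAU was that of miR-103 and miR-107 alone, and G22C, near the 3′ end, was the only substitution between them. The seeds of miR-378a (CUGGACU) and miR-210 (UGUGCGU) were each held by no other strand of the table. The share of G and C was highest in miR-210, at 63.6%, against 52.4% in miR-378a and 43.5 to 47.8% in the rest.

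In GRCr8, miR-378a-3p is encoded at chr18:57128925-57128945 on the minus strand, within the span and on the strand of Ppargc1b. For miR-210-3p the position is chr1:205755946-205755967 on the minus strand, within the long noncoding RNA gene LOC102553043. The miR-103-3p strand stood at chr3:138963278-138963300 on the plus strand, within Pank2, and the same strand was found in the other mir-103 hairpin, which lies within Pank3 on chromosome 10. The genes of mir-181a-1 and mir-181b-1 are neighbours on the plus strand of chromosome 13, with miR-181a-5p at chr13:52037081-52037103 and miR-181b-5p at chr13:52037263-52037285, and both overlap the noncoding gene LOC108352541. The miR-181b strand was also found in the mir-181b-2 hairpin on chromosome 3, which overlaps Nr6a1 and the noncoding gene LOC120101539. The hairpin mir-181a-2, which holds the same miR-181a-5p strand, was not analysed here as a row of its own. The neighbours mir-181c and mir-181d lie on chromosome 19, with miR-181c-5p at chr19:40888314-40888335 and miR-181d-5p at chr19:40888484-40888506 on the plus strand, and no other annotated gene overlapped them. Whether each hairpin is exonic or intronic was not looked up here.

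Between the libraries as labelled, mir-210 was 3.48-fold lower in swim, but its ratio was 2.02 with the second part's columns exchanged, and none of the other members differed by as much as 2-fold. Within the mir-181 family mir-181a-1 was lower in swim on the scale used here (above 1 with median-of-ratios factors and for unscaled counts), and mir-181b, mir-181c and mir-181d were higher. The levels of mir-378a and mir-103 were within 6.40% and 3.77% of control. Levels are given as counts scaled to a library total of 1000000 miRNA counts (CPM), with no division by length, since the mature strands are 21 to 23 bases long. From the rarest to the most abundant member the levels spanned 118-fold in control and 435-fold in swim. The 7 measurements together held 4.31% of the miRNA counts in control and 4.17% in swim, and mir-378a and mir-181a-1 made up 89.4% of that sum in control and 87.7% in swim. Of the 184 distinct entries (copies with equal counts taken once), mir-378a ranked 10th by count in each library. The rank of mir-181a-1 was 11 in control and 12 in swim. The others kept close to their place, from 33 to 30 for mir-181c, 45 to 46 for mir-103, 54 to 55 for mir-181b and 71 to 70 for mir-181d, while mir-210 as labelled went from rank 82 to 94.

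**Figure D1:**
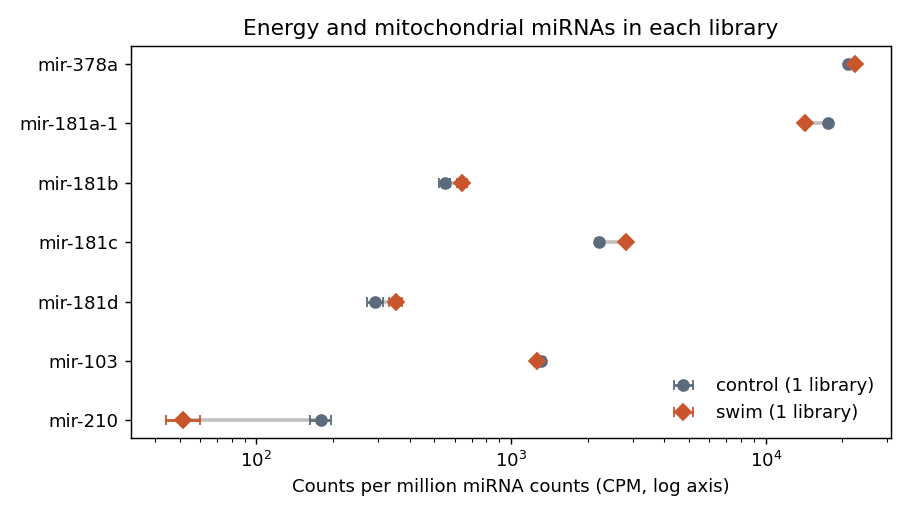
Level of each measurement in the control library (circles) and the swim library (diamonds), in CPM on a log axis, with 95% exact binomial intervals for counting error. The intervals of the libraries stand clearly apart at mir-210, at 179 and 51.6 CPM with the columns as labelled (67.6 and 137 CPM if exchanged), while mir-103 and mir-378a lie almost on top of each other.

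The entry mir-378a, whose hairpin overlaps the PGC-1β gene, was the most abundant of the set. It had 51843 counts in control, or 21067 CPM (95% interval 20888 to 21247), and 72179 in swim, or 22416 CPM (22255 to 22579). The ratio of swim to control was 1.06 (1.05 to 1.08), so the libraries differed by 6.40% on this scale. The intervals did not overlap, but the direction rests on the scaling. The ratio was 0.984 (0.973 to 0.995) when the row named Others, which names no miRNA, was added to the library totals, and 1.00 relative to the median of the first part of the table, described below. Under the other scalings tried it was between 1.05 and 1.61. The entries most like it in log2 ratio, among 118 others whose counts summed to at least 100, were mir-146a at 1.07, mir-23b at 1.05 and mir-10a at 1.05.

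The mir-103 row, of the miRNA housed in the pantothenate kinase genes, had 3234 counts in control and 4072 in swim for each copy. This was 1314 CPM (1269 to 1360) in control and 1265 CPM (1226 to 1304) in swim. The ratio of 0.962 had an interval of 0.919 to 1.01 that included 1, so no difference was detectable at this depth on the scale used here. With median-of-ratios factors it was 1.45, with TMM factors 1.17 and with unscaled counts 1.26, each with an interval above 1. It was 0.890 (0.850 to 0.932) with Others in the totals, 0.904 (0.863 to 0.947) relative to its own part and 0.947 (0.904 to 0.992) with totals that left out the most abundant entry, each with an interval below 1.

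The near-identical mir-107, housed in Pank1, had 1111 counts in control and 1709 in swim and a ratio of 1.18 (1.09 to 1.27). The count of mir-103 was 2.91 times that of mir-107 in control and 2.38 times in swim. This ratio within a library, which no scaling can alter, was 0.819 times as large in swim (exact conditional interval 0.748 to 0.895). Reads too short to reach base 22 fit either strand, and the sources used here do not give how such reads were assigned. The sum of the pair was 1766 CPM (control) against 1795 CPM (swim), with a ratio of 1.02 (0.977 to 1.06) on the scale used here. That ratio was 1.54 with median-of-ratios factors, 1.24 with TMM factors and 1.33 for unscaled counts.

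The 4 mir-181 measurements, which share their seed, did not move alike. The most abundant, mir-181a-1, was lower in swim on the scale used here, though above 1 with median-of-ratios factors and for unscaled counts, and the other 3 were higher on each scale tried. None of them reached a 2-fold difference.

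For mir-181a-1, a miRNA known in mice from lymphocyte development, the counts were 42967 in control and 45609 in swim. These were 17460 CPM (17297 to 17625) and 14165 CPM (14036 to 14294), a ratio of 0.811 (0.801 to 0.822). Of the 71 distinct tested entries in the first part of the table, 9 had a lower ratio. On other scales the ratio ranged from 0.750 with Others in the totals to 1.22 under median-of-ratios factors, and it was also above 1, at 1.06, for unscaled counts.

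The mir-181b row, with copies on chromosomes 13 and 3, had 1348 counts in control and 2064 in swim for each copy. That was 548 CPM (519 to 578) and 641 CPM (614 to 669), a ratio of 1.17 (1.09 to 1.25). The level in swim was above that in control, and the intervals did not overlap.

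For mir-181c, the miRNA found in heart mitochondria, 5464 counts in control and 9097 in swim gave 2220 CPM (2162 to 2280) and 2825 CPM (2768 to 2884). The ratio of 1.27 (1.23 to 1.32) was the highest of the 7 measurements, and 18 of the 71 first-part entries had a higher one. Its chromosome 19 neighbour mir-181d had 719 counts in control and 1133 in swim, or 292 CPM (271 to 314) and 352 CPM (332 to 373). The ratio of mir-181d was 1.20 (1.10 to 1.32). The ratios of mir-181b, mir-181c and mir-181d stayed above 1 under each of the 7 other scales tried, from 1.08 for mir-181b with Others in the totals to 1.92 for mir-181c under median-of-ratios factors.

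Ratios between the mir-181 rows within a library do not depend on the scaling. The direction of their change rests on the column labels of the first part. The count of mir-181c was 0.127 times that of mir-181a-1 in control against 0.199 times in swim, so the ratio changed 1.57-fold (1.51 to 1.63). For mir-181b against mir-181a-1 the change was 1.44-fold (1.34 to 1.55). Neither row is specific to the chromosome 13 neighbours, since the strand of each also lies in a hairpin on chromosome 3. For mir-181d against mir-181a-1 it was 1.48-fold (1.35 to 1.63). All 3 minor forms thus gained on mir-181a-1 by an amount beyond counting error.

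Among themselves the minor forms kept their proportions more closely. The count of mir-181c was 7.60 times that of its neighbour mir-181d in control against 8.03 times in swim, so the ratio changed 1.06-fold with an interval (0.955 to 1.17) that included 1. The ratio of mir-181d to mir-181b, which lie on different chromosomes and differ by C12U, stood at 0.533 in control against 0.549 in swim and changed by 1.03-fold (0.915 to 1.16). For mir-181c against mir-181b the change was 1.09-fold (1.01 to 1.17). These intervals leave room for changes of up to 1.17-fold. In all, 12 such pairs of rows were compared, and whether any change exceeds the spread between animals could not be tested.

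As shares of the summed mir-181 counts, mir-181a-1 made up 85.1% (84.8 to 85.4%) of the control library's and 78.8% (78.4 to 79.1%) of the swim library's, with exact binomial intervals. The share of mir-181c was 10.8% (10.6 to 11.1%) in control and 15.7% (15.4 to 16.0%) in swim. The row of mir-181b took 2.67% and 3.56%, and that of mir-181d 1.42% and 1.96%. Since mir-181a-1 dominated, the sum followed it, from 20521 CPM in control to 17983 CPM in swim, giving a ratio of 0.876 (0.866 to 0.887). This ratio of summed hairpin rows was above 1 under 3 other scalings, at 1.32 with median-of-ratios factors, 1.07 with TMM factors and 1.15 for unscaled counts.

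**Figure D2:**
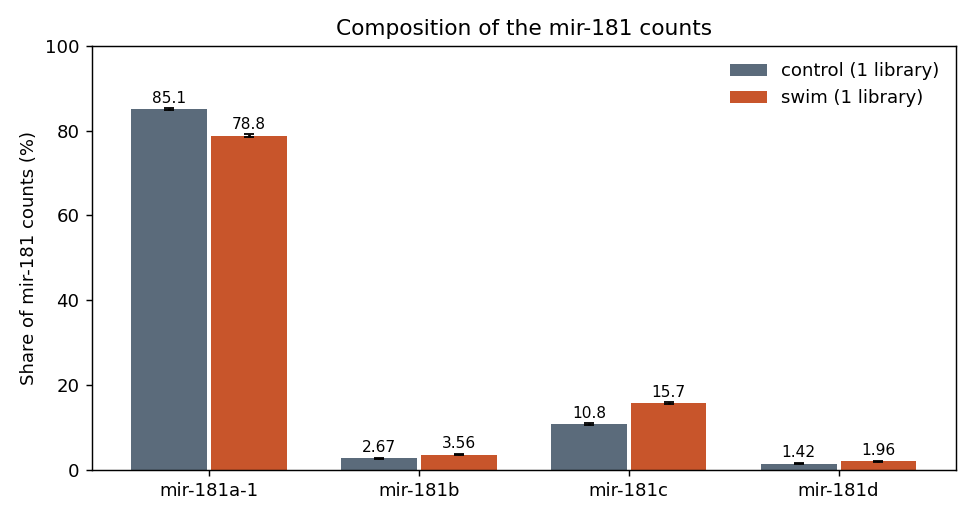
Share of each mir-181 row in the summed mir-181 counts of a library, in percent, for control (grey) and swim (orange), with 95% exact binomial intervals for counting error. The share of mir-181a-1 was 85.1% in control and 78.8% in swim, and each of the other 3 rows held a larger share in swim.

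The entry mir-210, the hypoxia-inducible miRNA that acts on iron-sulfur cluster assembly, was the rarest of the set and the one that differed most. It had 441 counts in control, or 179 CPM (163 to 197), and 166 in swim, or 51.6 CPM (44.0 to 60.0). The ratio was 0.288 (0.239 to 0.345), which is 3.48-fold lower in swim with the columns as labelled. With the second part's columns exchanged it was 2.02 (1.69 to 2.43), a higher call. As labelled, it was the only one of the 7 to pass the size rule, a ratio of at least 2-fold with an interval that excludes 1, applied where both counts summed to at least 20. By that rule 1 of 7 measurements was lower and 0 were higher. Of all 173 entries tested, 57 were lower, a share of 32.9%, and 6 were higher, 3.47%. A count of 1 in 7 is not above that share of lower entries.

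Set against other members, the ratio of mir-210 does not depend on a scaling of the whole library, but its direction rests on the column labels. The other members stand in the first part and mir-210 in the second. The gap between the parts, with median ratios of 1.06 and 0.458, thus stays in the changes given here. The count of mir-378a was 118 times that of mir-210 in control against 435 times in swim, so the ratio changed 3.70-fold (3.09 to 4.45). The count of mir-103 was 7.33 times that of mir-210 in control against 24.5 times in swim, so the ratio changed 3.35-fold (2.77 to 4.05). The count of mir-181d, nearest to mir-210 in level, was 1.63 times as high in control against 6.83 times in swim, so the ratio changed 4.19-fold (3.41 to 5.15). With the columns of the second part exchanged, the count of mir-378a was 312 times that of mir-210 in control and 164 times in swim, so the direction turned.

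The place of mir-210 in the table bears on how this is read, since it was the only member in the second part. In the first part the higher of the libraries' counts was at least 838, and among the tested entries of the second no count passed 795. Nearly all second-part entries were lower in swim, 94 of 98, with a median ratio of 0.458, and 57.1% of them passed the size rule as lower, against 1.33% of the first part. The median of the first part was 1.06. Relative to the median of its own part the ratio of mir-210 was 0.628 (0.522 to 0.752), below 1 but short of 2-fold. By that measure 10.2% of second-part entries were lower. Of the 93 distinct tested entries of the second part, 17 had a lower ratio than mir-210 and 75 a higher one. With the columns of that part exchanged, its median ratio was 1.27, 68 of the 98 entries lay above 1, 21.4% were called higher and 2.04% lower, and mir-210 stood at 1.59 times the median.

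The parts are set by the counts compared here, so this measure is no independent yardstick. With 719 counts in control, mir-181d reached the first part through its swim count of 1133, and it was 1 of 6 tested first-part entries whose control count lay within the range of the second part. Why the second part as a whole differed from the first was not tested. The entries most like mir-210 in log2 ratio were of the second part too, mir-9a at 0.287 (0.237 to 0.345), mir-17-2 at 0.281 and mir-17-1 at 0.276, the last 2 being copies of the same miRNA.

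**Figure D3:**
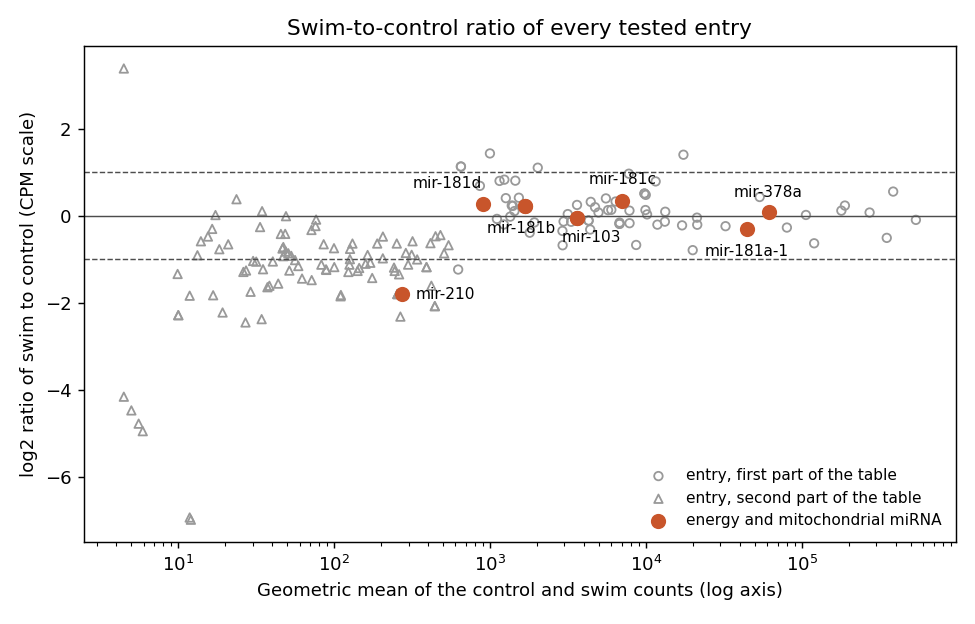
The log2 ratio of swim to control for the 173 tested entries against the geometric mean of their counts (log axis), with the energy and mitochondrial miRNAs filled in orange and the dashed lines at 2-fold. Circles are entries of the first part of the table and triangles those of the second, where 94 of 98 lie below 0 and mir-210 lies among them with the columns as labelled, while the other members lie between the dashed lines.

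Across the set, 4 of the 7 measurements had a ratio above 1 and 3 below, and the median log2 ratio was 0.09, against -0.59 for all 173 entries. The 6 members of the first part ran from 0.811 to 1.27, with a median log2 ratio of 0.16 against 0.09 for the 75 tested entries of that part. Relative to library totals, median-of-ratios factors raised every log2 ratio by 0.59, TMM factors by 0.28 and unscaled counts by 0.39, while totals with Others lowered them by 0.11. Of all entries, 18 were then higher and 26 lower with median-of-ratios factors, 11 and 33 with those of TMM, and 12 and 30 for unscaled counts. With the columns as labelled, the call of mir-210 held under these 4, with ratios of 0.434, 0.350, 0.376 and 0.266, and no other member was called under any of them.

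**Figure D4:**
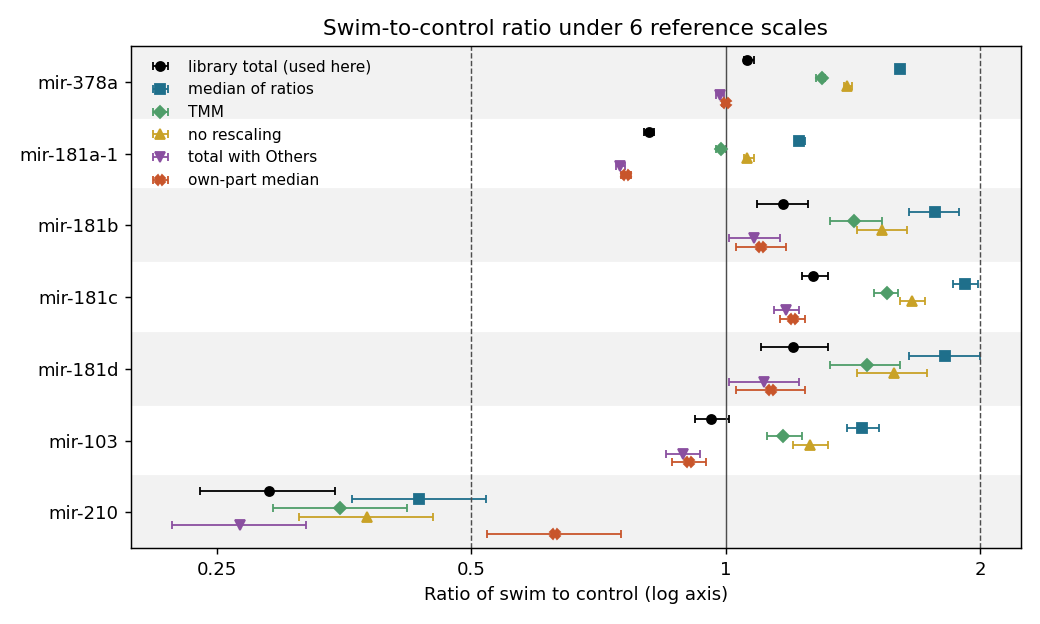
Ratio of swim to control for each measurement under 6 reference scales (log axis), with 95% intervals for counting error, a solid line at 1 and dashed lines at 2-fold. With the columns as labelled, the ratio of mir-210 lies below 1 on each scale and is 0.628 relative to its own part, mir-181b, mir-181c and mir-181d lie above 1 on each, and mir-378a, mir-103 and mir-181a-1 lie on either side.

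Other miRNAs studied in energy metabolism or mitochondria were read from a list of 26 names, 18 of which had a tested entry. Of these 1 was higher and 3 were lower, 10 lay above a ratio of 1 and 8 below, and the median log2 ratio was 0.21. Over all entries tested 3.47% were higher and 32.9% lower, and the median was -0.59. Of the 18 entries 14 stood in the first part, where the median log2 ratio of all tested entries was 0.09, and 4 in the second. The balance turned with the scaling, to 3 higher and 1 lower with median-of-ratios factors or unscaled counts and 2 and 1 with TMM factors, and it was 2 and 0 with the second part's columns exchanged. The higher one was mir-208b, made from an intron of the slow myosin gene Myh7, at 2.64 (2.58 to 2.71). The lower ones were mir-34a, which represses the deacetylase SIRT1, at 0.459 (0.388 to 0.541), mir-338 at 0.437 (0.362 to 0.526), and the liver miRNA mir-122, at 20 counts in control and a listed 1 in swim, a ratio of 0.0382 (0.000922 to 0.239). All 3 stood in the second part, where mir-34a and mir-338 lay at 1.00 and 0.954 of the median, and those calls were lost under each of these settings. With median-of-ratios factors and unscaled counts mir-195 and mir-532 were higher too, and with TMM factors mir-195. Of the abundant entries of the list, mir-143 had a ratio of 0.936, mir-133a one of 1.18 and mir-27b one of 0.828.

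The bases GCAGCA stood within the first 8 bases of 7 of the 693 mature strands in the RefSeq table, read on the given strand, which were those of miR-103, miR-107, miR-15b, miR-16, miR-195, miR-322 and miR-497. A list of 8 names related to mir-103 (mir-107, mir-15a, mir-15b, mir-16, mir-195, mir-322, mir-497 and mir-503) is not quite that set, since it holds mir-503 and leaves out mir-103. Of the 8 names 7 had a tested entry, 4 of them in the first part, and 0 were higher and 1 was lower. Their median log2 ratio was -0.02. Over all entries tested 3.47% were higher and 32.9% lower, with a median of -0.59. The lower one was mir-497, at 0.414 (0.344 to 0.498), a second-part entry at 0.905 of that part's median. Under median-of-ratios scaling, TMM scaling and with unscaled counts, mir-497 was no call and mir-195 was higher, so the count was 1 higher and 0 lower, and with the second part's columns exchanged it was 0 and 0. In the same list mir-16 had a ratio of 1.02 (0.993 to 1.05), mir-322 one of 0.986 and mir-195, which shares its cluster with mir-497, one of 1.75 (1.62 to 1.89).

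Of 11 other names studied as raised in low oxygen, like mir-210, 9 were matched to a tested entry, all in the first part. The names mir-24-1 and mir-24-2, copies with equal counts, were missed in the matching and are left out of the figures for the 9. Each was a tested first-part entry too, with a ratio of 0.879 and no call. None of the 9 passed the size rule in either direction, their ratios ran from 0.866 to 1.25, and the median log2 ratio was 0.07. Of all first-part entries 1.33% were lower, while over all entries tested 32.9% were lower and 3.47% higher. Since none of the 9 stood in the second part, the part of the table and any trait of mir-210 cannot be told apart here. In this list mir-26a had a ratio of 1.08, mir-26b one of 0.970, mir-21 one of 0.866 and mir-27a one of 1.08. As labelled, the ratio of mir-210 lay below all of them, and with the second part's columns exchanged above all.

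The libraries carried the miRNAs of heart muscle, as the tissue label implies. The 5 cardiomyocyte entries summed to 68900 CPM in control and 85687 CPM in swim. Of these sums mir-133a gave 61888 and 72772 CPM, and mir-1 gave 1313 and 820 CPM. The endothelial mir-126a was at 37523 and 37987 CPM, and the vascular smooth muscle pair mir-143 and mir-145 at 199692 and 187599 CPM. The leukocyte entries, 3 of 4 with a row, summed to 6979 and 6914 CPM and the fibroblast-associated ones, 3 of 3, to 9652 and 8847 CPM. Of the 3 erythroid names 1 had a row, mir-144, at 29 and 25 CPM. Single markers went apart from these sums. Among the cardiomyocyte entries the ratio was 2.64 for mir-208b, 1.19 for mir-499, 1.18 for mir-133a, 0.899 for mir-208a and 0.624 (0.593 to 0.658) for mir-1. Of these 5, all in the first part, 1 was higher and 0 lower, against 3.47% and 32.9% of all entries tested. Of all first-part entries 1.33% were lower. Of the fibroblast-associated entries mir-199a had a ratio of 1.25, mir-21 one of 0.866 and mir-214 one of 0.370 (0.296 to 0.461), a lower call in the second part that was lost with median-of-ratios factors or exchanged columns. The ratio was 1.07 for mir-146a, 0.908 for mir-150, 0.785 for mir-142, 1.32 for mir-145, 1.01 for mir-126a and 0.849 for mir-144. The part of cell makeup in the mir-181 or mir-210 ratios was not tested.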

How the data were processed

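The authors deposited 1 table of whole-number counts per library, by hairpin name, taken as unscaled since the totals differ. Scaling of some rows cannot be seen from the values, and a listed 1 may be a filled-in value. The submitters' processing notes name Bowtie 0.12.2 and the builds rn5 and rn4, with no role. The sources used here do not give how reads fitting several hairpins were counted, the miRNA release or any filter. The row Others (5.41% of counts in control, 12.5% in swim) and the 9 asterisk rows, which repeat unmarked rows, were left out, and the name let-7e, whose control and swim counts are exchanged between its 2 rows, got no ratio. CPM values are counts over the unmarked-row total of their library. Ratios have exact conditional binomial intervals, and pair ratios exact conditional odds-ratio intervals (scipy 1.17.1). PCR reads are not independent molecules, so intervals cover counting error only. The size rule used a pseudocount of 0.5 in the log2 ratio. TMM factors came from edgeR 4.0.16, used for nothing else. The rule was tested on simulated data.

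The members and lists were chosen with earlier results of these data known. The text names every member, and from each list the 4 most abundant entries and up to 4 that passed the size rule. It also names the 3 entries nearest in ratio to mir-378a and mir-210. A few list entries beyond this rule are named too, mir-208a and mir-532 among them.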

Additional observations from a re-analysis of the deposited data

Results flagged for a closer look

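The row named Others, which stands for no miRNA and entered no comparison, held 12.5% of all counts in the swim library against 5.41% in control. It was picked out as a signal outside the rows compared that was above its level in the control library. Adding it to the library totals lowered the ratio of every miRNA, mir-378a from 1.06 to 0.984 among them.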

How the results depend on the processing

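The count of 1 lower and 0 higher members held under every alternative run except 2. Relative to the median of the own part, 0 were lower. With the columns of the second part exchanged (added after seeing the data) 0 were lower and 1 was higher, since mir-210 reversed to a log2 ratio of 1.01, and over all entries 26 were higher and 3 lower. Over all entries, the calls were 18 higher and 26 lower with median-of-ratios factors, 11 and 33 with those of TMM, 12 and 30 without rescaling, and 11 and 11 relative to the own part. A 1.5-fold rule gave 12 higher, a 3-fold rule 1 higher and 26 lower, and a summed count of at least 100 left 36 lower. The stricter rules by construction leave fewer calls, and for the other settings the cause was not tested. The remaining settings, among them totals over distinct entries (added after seeing the data), stayed within 1.5 times the count. Log2 ratios ran from -1.91 to -0.67 for mir-210 and from 0.24 to 0.94 for mir-181c, with no change of sign under the 7 other scales, while the sign turned under 3 of 7 scales for mir-103, 2 for mir-181a-1 and 1 for mir-378a. Summing hairpin copies left each change of a pair ratio as it was. No paired analysis was possible because each group has 1 library, and no library could be left out.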
